A study of Mus musculus with 7 samples.

Results

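Solute carriers are the membrane proteins of the Slc gene families, and 95 of them were measured among the 5018 genes of the deposited array table. The members were every probe set (a few probes within roughly 1 exon) whose platform annotation gave exactly 1 gene symbol beginning with Slc and a digit. That gave 1147 of the 53644 probe sets with 1 symbol, in 34 Slc families, with 2 to 27 probe sets per gene and a median of 12. All 95 lay on chromosomes 1 (16 genes), 10 (22), 11 (32), 12 (10) and 13 (15). They were 25.3% of the 375 protein-coding Slc symbols in the RefSeq mouse gene table. The deposited table has 65535 rows and may be incomplete, so these chromosomes may reflect only the rows it holds. Below, all genes means the 5018 genes of this table. Several carriers known from the retinal pigment epithelium and pigment cells, among them Slc16a1, Slc16a8, Slc2a1, Slc4a4, Slc6a6, Slc24a5 and Slc45a2, were not analysed here.

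The study compared retinal pigment epithelium (RPE) of mouse pups with and without Dicer1, the nuclease needed to mature most microRNAs, on 7 Affymetrix arrays. The RPE was dissected from eyes at postnatal day 5. Dicer1-deficient RPE (3 arrays) was Dicer1loxP/loxP;Dct-Cre, in which both Dicer1 alleles are floxed and the dopachrome tautomerase promoter, active in pigment cells, drives Cre. Control RPE (4 arrays) has no stated genotype. The labels give a mating of Dicer1 flox/+ Dct cre with Dicer1 flox/flox mice, a cross in which every pup carries at least 1 floxed allele and littermates may or may not carry Cre. Whether each array held a different animal is not stated, and p-values therefore cover only the scatter among these 7 arrays, part of which may be technical.

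Slc proteins move sugars, amino acids, lactate, nucleosides, vitamins, metals and inorganic ions across the plasma membrane and across organelle membranes, by facilitated diffusion or by coupling to ion gradients. In the RPE, carriers on the apical face towards the photoreceptors and on the basal face towards the choroid carry glucose inwards and lactate, ions and water outwards. Their surface position is set by epithelial polarity and by helper proteins such as basigin, and the sodium pump supplies the gradient that many of them use.

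The signals were on a log2 scale, and the median of the whole table was 6.22. Control 4 stood apart in its median, 6.05 against 6.22 to 6.26 in the other 6 arrays. It correlated with them at 0.943 to 0.951 over all probe sets, and correlations among the other 6 are not given here for comparison. Counts of calls are therefore given with and without it. Dicer1 itself was at 10.27, 10.65, 10.69 and 10.88 in the controls at its brightest probe set and 10.53, 10.71 and 10.47 in the Dicer1-deficient arrays, which differed by -0.05 (adjusted p = 0.961), and the labels do not say which part is floxed, so a probe set outside that part checks nothing. The 10 measured RPE markers included the member Slc24a4. Of them, 3 were lower and 0 higher by the mean of probe sets (Kcnj13, Rdh5 and Rdh10), and 1 was lower by the brightest probe set. Of all genes, 2.83% were lower by the mean and 0.917% by the brightest probe set, in the test described below. The average signal of the RPE markers at the brightest probe sets was 10.37 to 10.64 in the controls and 9.92 to 10.21 in the Dicer1-deficient arrays. Less RNA per cell and fewer cells of a type cannot be told apart in dissected tissue.

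Each gene was summarised in 2 ways, by its brightest probe set (the one with the highest mean over the 7 arrays) and by the mean of its probe sets, and each difference given below is log2, Dicer1-deficient less control. The test was limma over all 5018 genes with Benjamini-Hochberg adjustment, two-sided, and a gene passed at an adjusted p under 0.05.

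The Dicer1-deficient arrays had lower signal of the scaffold gene Slc9a3r1 and of the magnesium carrier gene Slc41a2 by either summary. By the mean of probe sets the carriers Slc22a23, Slc25a21, Slc16a6, Slc28a3, Slc43a2, Slc35d2 and Slc6a4 were higher and Slc1a4 and Slc25a10 were lower. Slc35f1 was higher by its brightest probe set. The remaining 83 members passed on neither summary.

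By the brightest probe set, 3 of 95 Slc genes passed (3.16%, 1 higher and 2 lower), where 2.33% of all genes passed (1.41% higher and 0.917% lower). By the mean of probe sets, 11 of 95 passed (11.6%, 7 higher and 4 lower), where 5.86% of all genes passed (3.03% higher and 2.83% lower). At an unadjusted p under 0.05 there were 17 and 24 of the 95 members, and 726 and 847 of all 5018 genes. The 2 genes that passed on both summaries were Slc9a3r1 and Slc41a2, and the 12 that passed on either came from 10 families. The sign of the difference was the same on both summaries in 73 of 95 members. Arrays of the groups did not overlap in 15 members by the brightest probe set (15.8%, 10 higher and 5 lower), against 16.3% of all genes (9.27% higher and 7.01% lower). The mean gave 22 such members (23.2%, 13 higher and 9 lower), against 18.9% of all genes (10.2% higher and 8.65% lower). The median difference over the members was -0.05 by the brightest probe set and -0.01 by the mean, next to -0.01 and -0.01 over all genes. The share of members passing lay near that of all genes by the brightest probe set and above it by the mean, and no test of the family as a whole was made.

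Without control 4, all of these calls held and more were made. Of the 95 members, 22 passed by the mean of probe sets (23.2%, 16 higher and 6 lower), where 17.0% of all genes did (6.76% higher and 10.3% lower), and 11 of them were those that had passed with all arrays. By the brightest probe set 6 members passed (6.32%, 4 higher and 2 lower), where 5.18% of all genes did (3.17% higher and 2.01% lower), the 3 added being Slc16a6, Slc22a23 and Slc38a9. The sign of the difference turned in 23 of 95 members by the brightest probe set and in 19 by the mean, 0 of which had passed with all arrays on that summary, so a small difference that did not pass has no settled direction here.

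**Figure D1:**
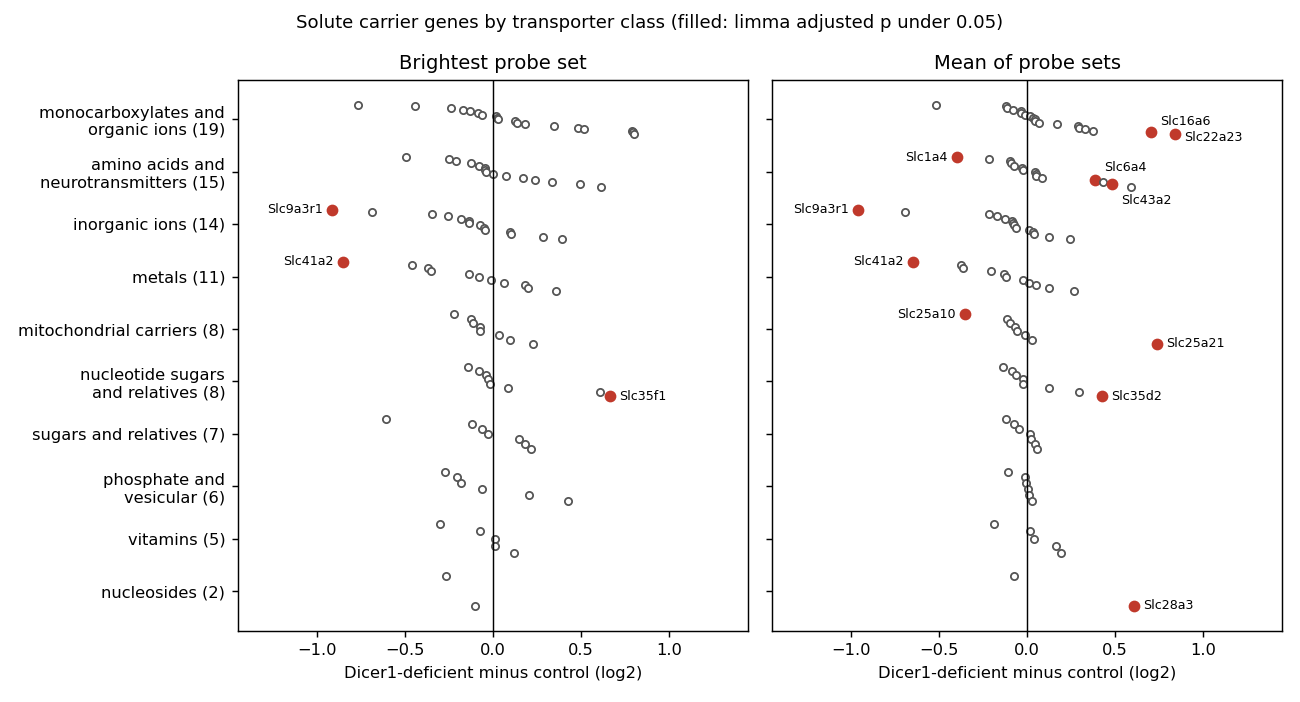
Log2 difference (Dicer1-deficient minus control, x axis) of each of the 95 Slc genes by transporter class (rows, number of genes in brackets), by the brightest probe set on the left and the mean of probe sets on the right. Filled points passed the limma test and are named: 3 on the left and 11 on the right, with Slc9a3r1 and Slc41a2 the lowest of the named genes on both sides.

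Slc9a3r1 encodes NHERF1 (also called EBP50), a scaffold with PDZ domains that ties membrane proteins to the actin cytoskeleton in apical microvilli. It is a member by its name alone, given after the sodium/proton exchanger it regulates, and is not a transporter. In control arrays 1 to 4 its brightest probe set was at 8.45, 8.74, 8.47 and 8.50, and in the 3 Dicer1-deficient arrays at 7.63, 7.61 and 7.63. All Dicer1-deficient arrays lay below all controls. The group means were 8.54 ± 0.14 (SD, n = 4) and 7.62 ± 0.01 (SD, n = 3), a log2 difference of -0.92 (SE 0.11; adjusted p = 0.00492), or 1.89-fold lower. The mean of its 7 probe sets gave -0.96 (SE 0.10; adjusted p = 0.000505). All 7 probe sets were lower with arrays that did not overlap, as were 6.62% of all probe sets of the table, and 5 of them passed the test made over all probe sets, with the largest at -1.30. Of the 12 genes, it was the one that passed in all 7 fits that left out 1 array, on both summaries.

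The sodium/proton exchanger genes themselves, Slc9a2, Slc9a3 and Slc9a4, had differences of 0.09, -0.26 and -0.08 at their brightest probe sets (0.39, -0.23 and -0.20 without control 4), and none passed on either summary. Their control means there were 5.86, 5.86 and 5.84, below the median signal of all probe sets.

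Slc41a2 encodes a magnesium transporter of the plasma membrane. Its brightest probe set was at 8.28, 8.41, 8.52 and 8.80 in controls 1 to 4 and at 7.47, 7.81 and 7.67 in the Dicer1-deficient arrays. The groups did not overlap, and the difference was -0.85 (SE 0.15; adjusted p = 0.0294), 1.80-fold lower. The mean of 10 probe sets gave -0.65 (SE 0.10; adjusted p = 0.00489), from 6.53 ± 0.09 (SD, n = 4) to 5.88 ± 0.15 (SD, n = 3). Of its probe sets 9 were lower and 7 did not overlap. The call on the mean held in all 7 fits without 1 array, and that on the brightest probe set in 2, those without control 1 or control 4. Slc41a1, its paralog, which exports magnesium, was chosen for mention after its values were seen. All 12 of its probe sets were lower, its arrays did not overlap on either summary, and its differences of -0.35 and -0.38 did not pass (adjusted p = 0.248 and 0.0634). On the mean it passed when control 4 was left out, at -0.38 (adjusted p = 0.0335).

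The other 9 genes for metal carriers did not pass on either summary. Slc40a1, which encodes ferroportin, the iron exporter, was at 8.63, 8.60, 8.88 and 8.30 in the controls and at 8.06, 7.89 and 8.46 in the Dicer1-deficient arrays at the brightest probe set. Its groups overlapped at control 4 and the third Dicer1-deficient array, and the difference was -0.46 (SE 0.18; adjusted p = 0.292), with all 9 probe sets lower. The mean gave -0.37 (adjusted p = 0.501). Without control 4 the 2 differences were -0.57 and -0.56 and did not pass (adjusted p = 0.0977 and 0.0558). The zinc exporter gene Slc30a1 differed by 0.18 and 0.12. Slc30a10, for a manganese exporter, differed by 0.36 and 0.26 with arrays that did not overlap (adjusted p = 0.303 and 0.123), and passed on the mean without control 4 at 0.31 (adjusted p = 0.0106). The 5 zinc importers of the Slc39 family lay between -0.13 and 0.20 at their brightest probe sets. The upper limit was Slc39a5, whose controls were at 5.76, 5.82, 6.23 and 7.29 and which was at 0.54 without control 4.

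**Figure D2:**
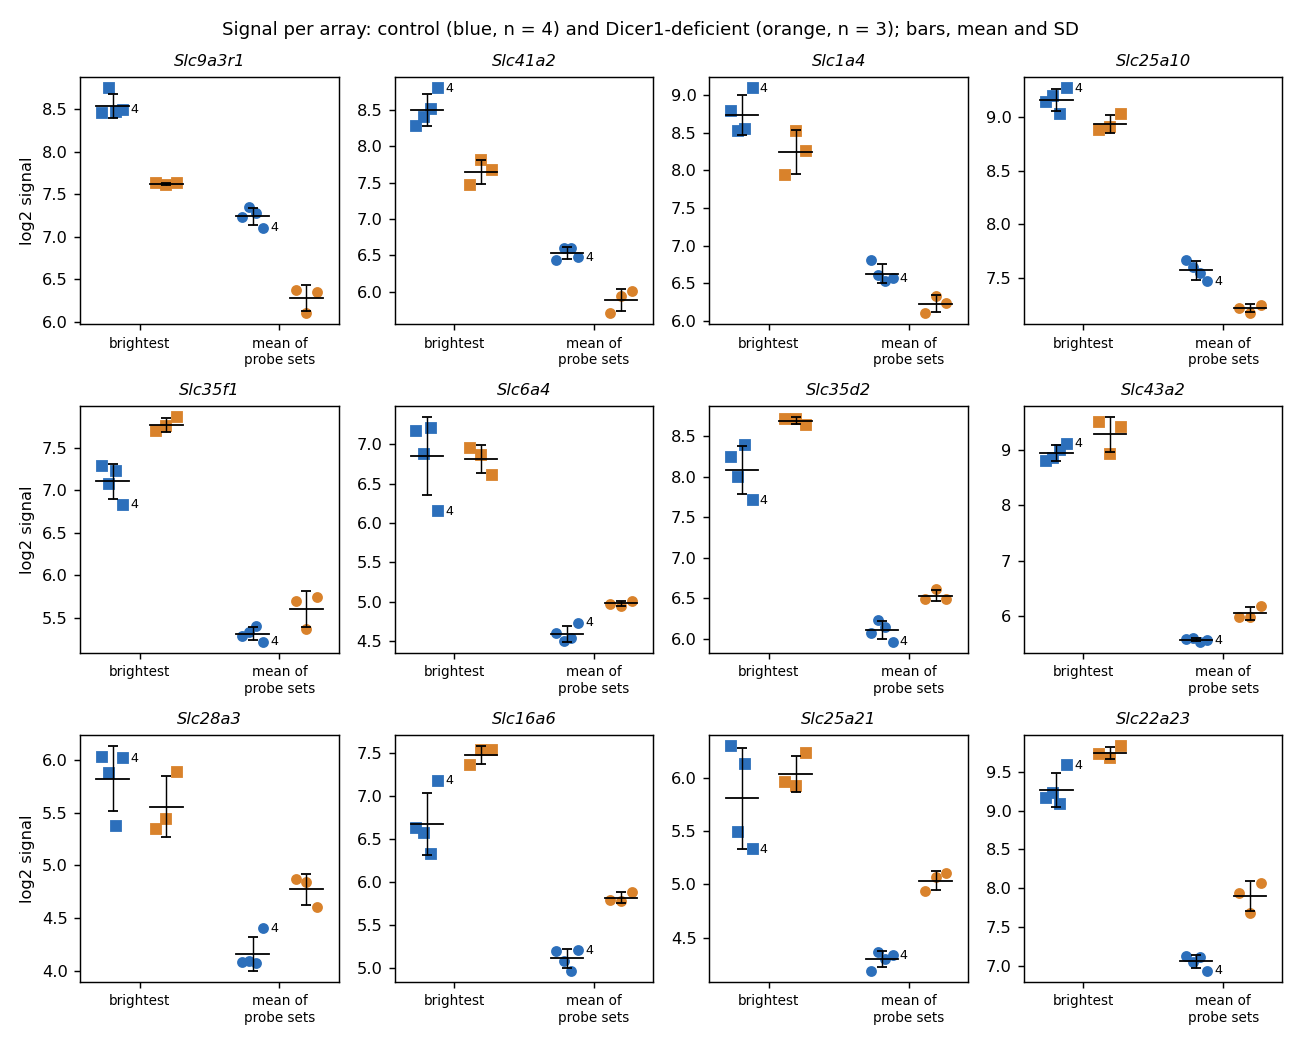
Log2 signal (y axis, a separate range per gene) of the 12 Slc genes that passed on either summary in each array, control in blue (n = 4) and Dicer1-deficient in orange (n = 3), as brightest probe set (squares) and mean of probe sets (circles), with mean and SD. The digit 4 marks control 4. Groups are separated on both summaries in Slc9a3r1, Slc41a2, Slc22a23, Slc16a6 and Slc35d2. They are separated on the mean alone in Slc28a3, Slc6a4, Slc25a21, Slc43a2, Slc1a4 and Slc25a10, and at the brightest probe set alone in Slc35f1.

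Monocarboxylate and organic ion carriers were the largest class, with 19 genes. By the mean of probe sets 2 were higher and 0 lower, where 3.03% and 2.83% of all genes were. None passed by the brightest probe set, where 2.33% of all genes did. Slc22a23 encodes an orphan member of the organic ion transporter family. It was at 7.13, 7.05, 7.12 and 6.94 in the controls and at 7.94, 7.68 and 8.07 in the Dicer1-deficient arrays by the mean of its 12 probe sets. No array of one group reached the other, and the difference was 0.84 (SE 0.11; adjusted p = 0.00171), 1.79-fold higher. All 12 probe sets were higher, 3 passed on their own and 11 did not overlap, where 7.35% of all probe sets were higher without overlap. The brightest probe set differed by 0.48 (SE 0.14; adjusted p = 0.144), and the lowest Dicer1-deficient array, at 9.67, lay just above control 4, at 9.58. Without control 4 it was 0.59 (adjusted p = 0.0126).

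Slc16a6 encodes MCT7, a carrier of the monocarboxylate family known for ketone bodies in liver. Its mean over 8 probe sets was 5.20, 5.08, 4.97 and 5.21 in the controls and 5.79, 5.77 and 5.88 in the Dicer1-deficient arrays. The groups were separated, with a difference of 0.70 (SE 0.09; adjusted p = 0.00168), 1.63-fold higher. At the brightest probe set the controls ran from 6.33 to 7.17 and the Dicer1-deficient arrays from 7.36 to 7.54, a difference of 0.80 (SE 0.19; adjusted p = 0.0862), and without control 4 it was 0.97 (adjusted p = 0.00514). All 8 probe sets were higher, 6 did not overlap and 2 passed.

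The Slc16 family held 9 members, the monocarboxylate carriers and their relatives. The Dicer1-deficient arrays lay above all controls on both summaries in 3 of them (Slc16a6, Slc16a10 and Slc16a13), in Slc16a11 at the brightest probe set alone and in Slc16a7 by the mean alone. In Slc16a14 they lay below all controls at the brightest probe set. Of all genes, 9.27% were higher and 7.01% lower without overlap by the brightest probe set, and 10.2% and 8.65% by the mean. The median difference of the family was 0.18 by the brightest probe set and 0.04 by the mean. The lactate carrier gene Slc16a3 (MCT4), at 8.96 ± 0.31 (SD, n = 4) and 9.14 ± 0.12 (SD, n = 3), differed by 0.18 (adjusted p = 0.763), within the spread of its controls. Slc16a7 (MCT2) differed by 0.03 at its brightest probe set and by 0.29 by the mean (adjusted p = 0.974 and 0.143). Slc16a14, an orphan carrier, was at 7.25, 6.85, 6.62 and 7.03 in the controls and 5.85, 6.38 and 6.28 in the Dicer1-deficient arrays. It was lower without overlap, at -0.77 (SE 0.19; adjusted p = 0.0877), and lower in all 7 probe sets. Slc16a10, the aromatic amino acid carrier TAT1, and Slc16a13 were named after their values were seen. Their means differed by 0.37 (adjusted p = 0.0577) and 0.33 (adjusted p = 0.0632) without overlap, and both passed without control 4 (adjusted p = 0.0302 and 0.0205).

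Among the other organic ion carriers, Slc22a4, Slc22a5 and Slc22a21, a cluster of close paralogs for carnitine and related cations, differed by 0.02, 0.01 and 0.35 at their brightest probe sets and did not pass. The organic cation exporters Slc47a1 and Slc47a2 differed by -0.24 and -0.09 there (-0.15 and 0.21 without control 4), and by 0.17 and -0.04 by the mean. Signals of such related genes, like those of Slc17a1 to Slc17a4, Slc36a1 to Slc36a3 and Slc5a4a with Slc5a4b, are uncertain where probes match more than 1 of them. Whether any probes do was not tested. Slc22a4, Slc47a1 and Slc17a1 passed by the mean once control 4 was left out.

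Amino acid and neurotransmitter carriers held 15 genes. By the mean of probe sets 2 were higher and 1 was lower, where 3.03% and 2.83% of all genes were. None passed by the brightest probe set, where 2.33% of all genes did. Slc43a2 encodes LAT4, which carries branched-chain amino acids and phenylalanine without a sodium gradient. Its mean over 18 probe sets was 5.59, 5.60, 5.54 and 5.56 in the controls and 5.98, 5.99 and 6.18 in the Dicer1-deficient arrays. The difference was 0.48 (SE 0.08; adjusted p = 0.0109), 1.39-fold higher, with 16 of 18 probe sets higher. Without the third Dicer1-deficient array it no longer passed (adjusted p = 0.0565).

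Slc1a4 encodes ASCT1, an exchanger of alanine, serine and cysteine. It was at 6.82, 6.61, 6.53 and 6.57 in the controls and at 6.11, 6.34 and 6.25 in the Dicer1-deficient arrays by the mean of 12 probe sets, all of which were lower. The groups did not overlap and the difference was -0.40 (SE 0.10; adjusted p = 0.0461). Its brightest probe set differed by -0.49 (adjusted p = 0.276), with the second Dicer1-deficient array at the level of control 2, both at 8.52. The call on the mean was lost on leaving out any array other than control 4, with an adjusted p of up to 0.207.

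Slc6a4 encodes the serotonin transporter, and its change depended on which probe sets were read. Its mean over 16 probe sets was 4.61, 4.51, 4.54 and 4.74 in the controls and 4.97, 4.95 and 5.01 in the Dicer1-deficient arrays, a difference of 0.38 (SE 0.08; adjusted p = 0.0298). The groups overlapped at its brightest probe set, at 6.85 ± 0.49 (SD, n = 4) and 6.81 ± 0.18 (SD, n = 3), and the difference was -0.04 (adjusted p = 0.979). Of its probe sets 12 were higher and 2 passed, the larger rising by 1.54 from 5.02 to 6.55. Like Slc1a4, it passed on the mean in 1 of the 7 fits without 1 array, that without control 4.

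Slc6a15, a sodium-coupled carrier of branched-chain amino acids and proline in neurons, was at 10.36, 10.57, 10.80 and 10.13 in the controls and 11.08, 11.21 and 10.96 in the Dicer1-deficient arrays at the brightest probe set. All 14 probe sets were higher and the groups did not overlap, but the differences of 0.61 and 0.59 did not pass (adjusted p = 0.125 and 0.0746). The mean passed without control 4, at 0.44 (adjusted p = 0.0212). Slc38a9, the lysosomal arginine sensor of the mTORC1 pathway, was named after its values were seen, at 0.49 and 0.43 (adjusted p = 0.0578 and 0.0688), and passed on both summaries without control 4. A further platform symbol of this gene, kept outside the members, differed by 0.28 on both summaries and did not pass (adjusted p = 0.342 and 0.2). The renal and gut carriers Slc6a18 and Slc6a19 and the dopamine transporter gene Slc6a3 differed by -0.21, -0.08 and 0.07 at their brightest probe sets and did not pass. Without control 4 these were 0.20, 0.27 and 0.20, so the direction in Slc6a18 and Slc6a19 rested on that array.

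Carriers of the inner mitochondrial membrane (8 genes of the Slc25 family) held 1 higher and 1 lower gene by the mean, where 3.03% and 2.83% of all genes were. They held none by the brightest probe set, where 2.33% of all genes passed. Slc25a21 encodes the oxoadipate carrier of lysine and tryptophan breakdown. Its mean over 14 probe sets was 4.19, 4.37, 4.30 and 4.33 in the controls and 4.93, 5.07 and 5.10 in the Dicer1-deficient arrays, a difference of 0.74 (SE 0.08; adjusted p = 0.000939). The groups were separated, yet both means lay below the median signal of 6.22. The control mean, 4.30, also lay below the lower quartile of all signals, 4.63, so no fold is given. At the brightest probe set the controls ran from 5.33 to 6.29 and enclosed the Dicer1-deficient arrays, with a difference of 0.23 (adjusted p = 0.811). The change sat in 6 probe sets that passed, with differences of 1.03 to 1.73, while 2 of the 14 were lower.

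Slc25a10 encodes the dicarboxylate carrier, which exchanges malate or succinate for phosphate. Its mean was 7.67, 7.60, 7.54 and 7.47 in the controls and 7.22, 7.18 and 7.25 in the Dicer1-deficient arrays. It was lower in all 12 probe sets, with a difference of -0.35 (SE 0.08; adjusted p = 0.0347) and no overlap. The brightest probe set differed by -0.22 (adjusted p = 0.363), and of the fits without 1 array only that without control 4 kept the call on the mean. Slc25a3, the phosphate carrier that feeds ATP synthase, was at 12.45 ± 0.06 (SD, n = 4) and 12.37 ± 0.25 (SD, n = 3). Its difference of -0.07 (adjusted p = 0.909) lay within that spread.

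The nucleoside carriers were 2 genes. Slc28a3 encodes CNT3, which takes up purine and pyrimidine nucleosides with sodium. Its mean over 20 probe sets was 4.08, 4.10, 4.08 and 4.41 in the controls and 4.87, 4.84 and 4.61 in the Dicer1-deficient arrays, a difference of 0.61 (SE 0.11; adjusted p = 0.0134). At its brightest probe set it was 0.27 lower on the log2 scale, with overlap, written -0.27 (adjusted p = 0.682). Of the 20 probe sets 19 were higher, 11 did not overlap and 1 passed, which rose by 2.89 from 4.30 ± 0.51 (SD, n = 4) to 7.19 ± 0.30 (SD, n = 3; adjusted p = 0.00587). That was the largest difference of any probe set of the 12 genes. Its control mean lay below the lower quartile of all signals, 4.63, so no fold is given. The call on the mean was lost without the first or the second Dicer1-deficient array or control 2. Slc29a3, a nucleoside carrier of lysosomes, differed by -0.10 and -0.08 and did not pass.

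**Figure D3:**
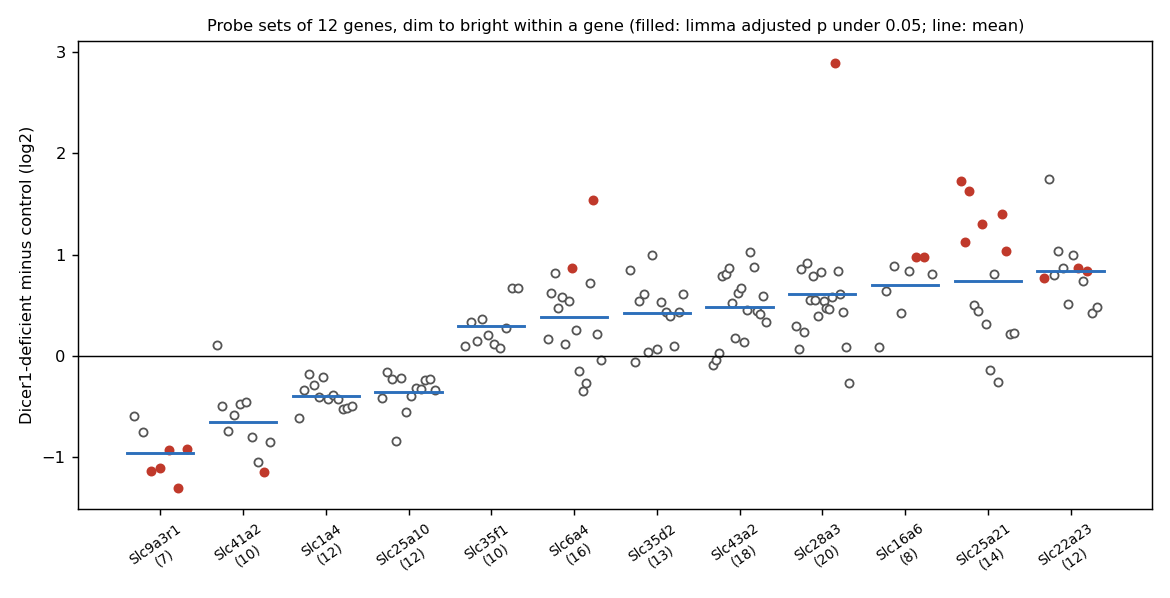
Log2 difference (y axis) of every probe set of the 12 Slc genes that passed on either summary, ordered within a gene from dim to bright in the controls, with the number of probe sets in brackets and the mean as a blue line. Filled points passed the limma test over all probe sets, 5 of 7 in Slc9a3r1 and 6 of 14 in Slc25a21, and 1 probe set of Slc28a3 stands at 2.89.

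Over all 1147 probe sets of Slc genes, 20 passed (14 higher and 6 lower), in 7 genes, where 1.06% of all probe sets did (0.656% higher and 0.406% lower). The 7 genes were Slc9a3r1, Slc41a2, Slc22a23, Slc16a6, Slc25a21, Slc28a3 and Slc6a4.

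Nucleotide sugar carriers of the Golgi and their Slc35 relatives were 8 genes. Slc35d2 encodes a carrier of UDP-N-acetylglucosamine and related sugars. Its mean over 13 probe sets was 6.08, 6.23, 6.15 and 5.97 in the controls and 6.49, 6.61 and 6.49 in the Dicer1-deficient arrays, a difference of 0.43 (SE 0.09; adjusted p = 0.0242). Its brightest probe set differed by 0.61 (adjusted p = 0.125), also with no overlap, and 12 of 13 probe sets were higher. On the mean it passed in 2 of the 7 fits without 1 array. Slc35f1, an orphan relative expressed in brain, was the 1 gene that passed by the brightest probe set alone, at 7.29, 7.08, 7.23 and 6.83 in the controls and 7.70, 7.75 and 7.86 in the Dicer1-deficient arrays. The difference was 0.67 (SE 0.13; adjusted p = 0.048), all 10 probe sets were higher, and the mean gave 0.30 (adjusted p = 0.176). The brightest call was kept in 1 of the 7 fits without 1 array, that without control 4. The remaining 6 members lay between -0.14 and 0.12 on both summaries.

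**Figure D4:**
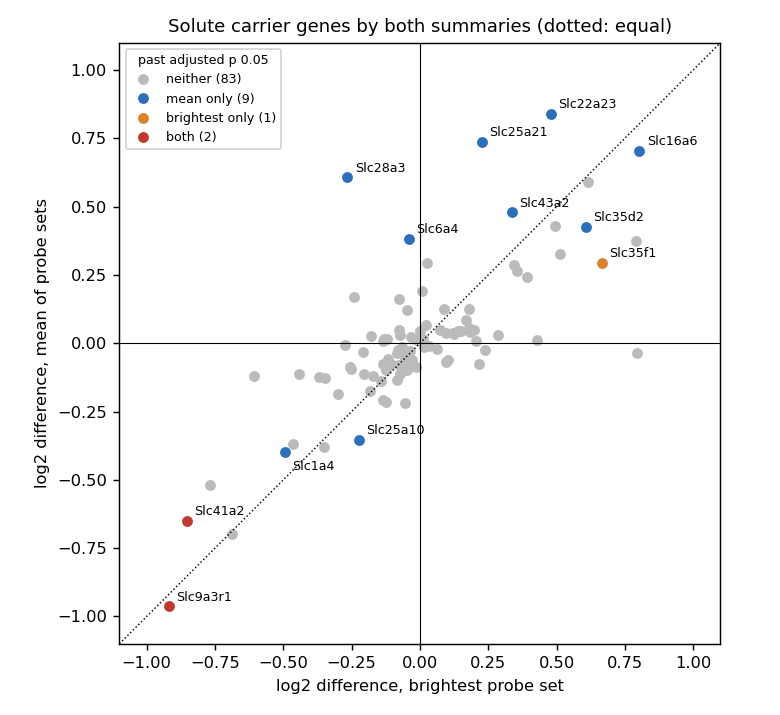
Log2 difference by the brightest probe set (x axis) against that by the mean of probe sets (y axis) for the 95 Slc genes, coloured by which summary passed the limma test (mean alone 9, brightest alone 1, both 2, neither 83). Slc9a3r1 and Slc41a2 lie near the dotted line of equal values, and Slc28a3 and Slc6a4 lie left of 0 and above it.

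Carriers of inorganic ions (14 genes, the scaffold gene Slc9a3r1 among them) held no other gene that passed. Slc24a4, a potassium-dependent sodium/calcium exchanger linked to pigmentation, was at 9.26, 9.74, 9.54 and 9.69 in the controls and at 9.62, 8.73 and 8.26 in the Dicer1-deficient arrays at the brightest probe set. The first Dicer1-deficient array lay within the controls and the other two lay below them, so that the difference of -0.69 (SE 0.30; adjusted p = 0.346) did not pass, although 16 of 17 probe sets were lower. Its mean gave -0.70 (adjusted p = 0.136). The anion exchanger genes Slc4a3 and Slc4a1, the latter the band 3 protein of red blood cells, differed by -0.05 and -0.18 at their brightest probe sets. Slc26a4 (pendrin, an exchanger of chloride, bicarbonate and iodide) differed by -0.13 and -0.08. Slc26a11, a sulfate carrier, was higher in 18 of 18 probe sets, at 0.39 and 0.24 (adjusted p = 0.508 and 0.639), with overlapping arrays, and without control 4 these were 0.22 and 0.07.

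With all arrays, no gene passed among the sugar carriers and their relatives (7 genes), the phosphate and vesicular carriers (6) or the vitamin carriers (5). The sugar carriers Slc2a4 (GLUT4) and Slc2a12 differed by -0.03 and -0.12 at their brightest probe sets, and by 0.14 and -0.16 without control 4. Slc5a8, a sodium-coupled carrier of lactate and short-chain fatty acids, differed by 0.18 and 0.06, and passed by the mean once control 4 was left out, at 0.21 (adjusted p = 0.0311). Slc45a3 differed by 0.15 and 0.05. Slc5a4a was at 6.39, 6.44, 6.54 and 7.80 in the controls and 6.29, 5.85 and 6.42 in the Dicer1-deficient arrays, and its difference of -0.61 (adjusted p = 0.513) fell to -0.27 without control 4. The folate carriers Slc19a1 and Slc46a1 differed by 0.01 and -0.30 and the thiamine carriers Slc19a2 and Slc19a3 by 0.01 and -0.07. Slc46a1 was at 8.25, 8.42, 8.35 and 8.46 in the controls and 7.96, 8.15 and 8.10 in the Dicer1-deficient arrays, without overlap, and did not pass (adjusted p = 0.21). Of the phosphate and vesicular class, Slc17a8 (the vesicular glutamate transporter VGLUT3) differed by 0.43 and 0.01, Slc17a1 by -0.18 and 0.03 and Slc17a3 by -0.20 and -0.11. Without control 4 these were 0.55 and 0.12 for Slc17a8, 0.28 and 0.21 for Slc17a1 (the latter passing, adjusted p = 0.0467), and 0.11 at the brightest probe set of Slc17a3, so that the negative values at the brightest probe sets turned. All 6 genes of the class had both group means by the mean of probe sets below the median signal.

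The members not described so far, given here whatever their values, had these differences at the brightest probe set. The amino acid carriers Slc1a6, Slc7a15, Slc36a1, Slc36a2, Slc36a3, Slc38a6 and Slc38a10 lay between -0.25 and 0.24 (-0.21 and 0.44 without control 4). Slc38a10, at -0.21 by the mean (adjusted p = 0.337), passed on the mean without control 4, at -0.29 (adjusted p = 0.0286). The potassium/chloride cotransporter Slc12a7 (KCC4), the sodium/calcium exchanger Slc8a3 and the anion carriers Slc26a3, Slc26a9 and Slc26a10 lay between -0.35 and 0.29, and without control 4 between -0.02 and 0.23. Slc8a3 was lower without overlap by the mean, at -0.22 (adjusted p = 0.233). The mitochondrial carriers Slc25a11 (oxoglutarate), Slc25a16, Slc25a29, Slc25a35 and Slc25a39 lay between -0.13 and 0.10 (-0.18 and -0.003 without control 4). The citrate and dicarboxylate carriers Slc13a2 and Slc13a5 were at -0.44 and -0.17, the bile acid carrier Slc10a1 at -0.06 and the carnitine carrier Slc22a16 at 0.13. Without control 4, Slc13a2 was at -0.26 and Slc22a16 at 0.61. Slc16a5 and Slc16a9 were at 0.14 and -0.13. Slc16a11, at 0.79 with no overlap (SE 0.33; adjusted p = 0.327), was at 0.49 without control 4 and at -0.04 by the mean. Slc11a1, the metal carrier of macrophage phagosomes, was at -0.37, the glucose carrier relatives Slc5a4b and Slc5a10 at -0.06 and 0.21 (both 0.24 without control 4), and the ascorbate carrier relative Slc23a3 at 0.12. Slc17a2, Slc17a4 and the renal phosphate carrier Slc34a1 were at -0.07, -0.28 and 0.21, and without control 4 at 0.24, -0.06 and 0.23. With all arrays none of these passed on either summary.

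The signal limits what could be read. At the brightest probe set both group means lay below the median signal of 6.22 in 24 of 95 members (25.3%), against 29.9% of all genes. For the mean of probe sets this was so in 55 members, Slc16a6, Slc25a21, Slc28a3, Slc43a2 and Slc6a4 among those that passed.

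There were 5 calls on the mean of probe sets that held in all 7 fits without 1 array, those of Slc9a3r1, Slc41a2, Slc22a23, Slc25a21 and Slc16a6. The 250 bases upstream of the start of 4 of them are shown, from RefSeq with coordinates in GRCm38.p6, because these genes carry the changes that rested on no single array (Slc16a6 is named only). Each is written 5′ to 3′ on the strand of its gene, with CG dinucleotides in capitals. The windows are chr11:115163091-115163340 on the plus strand for Slc9a3r1, chr10:83337818-83338067 on the minus strand for Slc41a2, chr13:34345219-34345468 on the minus strand for Slc22a23 and chr12:57197473-57197722 on the minus strand for the upstream one of the 2 listed starts of Slc25a21.
Slc9a3r1: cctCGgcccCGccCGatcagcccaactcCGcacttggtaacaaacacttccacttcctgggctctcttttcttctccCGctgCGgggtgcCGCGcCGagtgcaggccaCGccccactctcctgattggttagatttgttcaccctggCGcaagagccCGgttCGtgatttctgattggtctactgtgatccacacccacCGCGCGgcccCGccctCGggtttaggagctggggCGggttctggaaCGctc
Slc41a2: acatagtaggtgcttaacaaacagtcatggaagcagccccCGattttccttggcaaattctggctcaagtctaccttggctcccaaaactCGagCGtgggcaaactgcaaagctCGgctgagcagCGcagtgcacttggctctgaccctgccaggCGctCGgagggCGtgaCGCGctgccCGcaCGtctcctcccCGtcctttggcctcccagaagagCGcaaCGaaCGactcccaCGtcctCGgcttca
Slc22a23: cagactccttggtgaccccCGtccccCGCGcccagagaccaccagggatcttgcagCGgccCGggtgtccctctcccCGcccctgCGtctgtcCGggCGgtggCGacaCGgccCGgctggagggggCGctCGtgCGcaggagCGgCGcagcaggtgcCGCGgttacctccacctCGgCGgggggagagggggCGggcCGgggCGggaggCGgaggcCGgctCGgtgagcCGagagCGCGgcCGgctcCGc
Slc25a21: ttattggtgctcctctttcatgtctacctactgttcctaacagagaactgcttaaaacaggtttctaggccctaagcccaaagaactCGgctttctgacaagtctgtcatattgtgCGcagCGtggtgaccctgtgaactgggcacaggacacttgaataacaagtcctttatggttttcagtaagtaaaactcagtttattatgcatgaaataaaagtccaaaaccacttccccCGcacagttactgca
The windows of Slc9a3r1, Slc41a2 and Slc22a23 held 20, 18 and 32 CG dinucleotides at a GC content of 62.8%, 59.6% and 78.4%. That of Slc25a21 held 4 at 43.2%. The median was 12 at 57.6% over the 93 windows of the 77 Slc members in the table and 6 at 52.4% over all 32851 windows. The E-box CACGTG and the M-box core CATGTG, letters bound by the pigment cell factor MITF, and TAATCC, bound by OTX2, were searched on both strands, and no position can match more than 1 of them. None of the 4 windows held any of them. They occurred in 9, 4 and 7 of the 93 Slc windows and in 6.02%, 12.3% and 6.25% of all windows.

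Proteins that work with these carriers were read from a fixed list of 23, of which 9 were measured. Of these, 1 was higher and 3 were lower by the mean of probe sets, where 3.03% and 2.83% of all genes were. For the brightest probe set, given last, the shares of all genes were 1.41% higher and 0.917% lower. Atp1b1, a beta subunit of the sodium pump, was at 9.85, 9.84, 9.84 and 9.65 in the controls and 10.42, 10.48 and 10.48 in the Dicer1-deficient arrays, a difference of 0.66 (SE 0.08; adjusted p = 0.0016). Kcnj13, the apical potassium channel Kir7.1, was lower at -1.18 (adjusted p = 0.00081). Car4, a membrane-bound carbonic anhydrase that works beside bicarbonate carriers, was at 8.12, 7.05 and 5.81 in the Dicer1-deficient arrays against 8.45 to 9.17 in the controls, a difference of -1.95 (SE 0.44; adjusted p = 0.0325). Wnk4, a kinase that regulates cation-chloride cotransporters, was lower at -0.62 (adjusted p = 0.00531) by the mean and differed by 0.18 at its brightest probe set. Bsg, for basigin, the partner that brings monocarboxylate carriers to the surface, differed by -0.13 at its brightest probe set (12.69 ± 0.10 (SD, n = 4) and 12.56 ± 0.12 (SD, n = 3)), within the spread of the arrays. By the brightest probe set Atp1b1 was higher (0.62, adjusted p = 0.047) and Kcnj13 lower (-1.19, adjusted p = 0.00509), and no other partner passed.

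Other transporter families stood beside the Slc genes in the table. Of 5 organic anion transporter genes of the Slco family and 12 genes of the ATP-binding cassette (Abc) family, 0 passed in limma on either summary.

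Markers of other cells that the dissection could hold were read the same way, where 3.03% of all genes were higher and 2.83% lower by the mean of probe sets. The average of 5 photoreceptor markers at their brightest probe sets was 5.42 to 6.46 in the controls, the highest being control 4, and 6.10 to 6.92 in the Dicer1-deficient arrays, and 0 passed. The average of 5 retinal neuron markers was 6.62 to 7.26 and 6.76 to 7.60, with 1 higher and 1 lower by the mean of probe sets. The average of 6 lens markers ran from 6.08 to 8.03 and from 7.16 to 8.99, with a median difference of 1.34 and 0 passing. Markers of fibroblasts and sclera (8 measured) averaged 11.57 to 11.74 and 11.21 to 11.45, with 2 lower by the mean, and those of melanocytes and Schwann cells (3 measured) 8.83 to 9.26 and 8.33 to 8.47, with 2 lower by the mean. Muscle (5), red blood cell (1), macrophage (1) and endothelial (1) markers had 0 passing. The red blood cell marker was Slc4a1, itself a member, so it gives no separate reading. The macrophage marker Cd68 differed by -0.46 at its brightest probe set and -0.30 by the mean (adjusted p = 0.17 and 0.0864). Its arrays did not overlap on either summary, as in 7.01% and 8.65% of all genes in that direction. The part of these shifts in the Slc differences was not tested.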

How the data were processed

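Total RNA of dissected RPE was hybridised to 7 Affymetrix arrays (labels' protocols). The log2 signals that the authors deposited filled 65535 rows, and the submitters' processing notes name RMA (background correction, quantile normalization and probe summary) and Partek 6.6; build, probe alignment and filters are not given in the sources. Quantile normalization removes differences in total RNA. Values ran from 2.71 to 13.5, from which the log2 scale was inferred. The platform annotation gave 1 gene symbol for 53644 probe sets, several for 877 and none here for 11014. Of the 877, 9 included an Slc symbol and were left out. Another 6 platform symbols now carry Slc names in RefSeq, 1 of them a further symbol of the member Slc38a9 and 1 the opposite-strand transcript Slc6a19os. By the rule on symbols they were kept outside the members, and none passed.

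Groups came from the labels, which pair no arrays and give no batch. limma 3.58.1 (R 4.3.3; lmFit and eBayes, 2.82 and 4.38 prior and 5 residual degrees of freedom) was fitted over all 5018 genes and, separately, all named probe sets. Tables and figures used Python 3.11.15, pandas 2.3.3 and matplotlib 3.10.9. The code was tested on simulated data. The few arrays limit the precision, and no detection calls were used. The members, transporter classes (by family number) and lists were chosen with earlier results of these data known. Genes named are those past the threshold, the 2 highest and 1 lowest per class by the mean, and a list of carriers with a described place in RPE, pigment or blood cells. Others are said to be chosen after their values were seen, or stand for their family. Alternatives covered normalization, filters on dim genes, the probe set summary, moderation, array weights, the threshold and leaving out each array.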

Additional observations from a re-analysis of the deposited data

Results flagged for a closer look

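Among 36 named genes on 2 summaries (72 sets of 4 controls), 9 had a control array far from the other 3 relative to the range of the group, and control 4 was that array in 8. Chance gives this in about 1 in 20 sets. By the mean of probe sets, control 4 was above the others in Slc17a1 (5.31 against 4.58 to 4.6), Slc17a3 (4.56 against 4.09 to 4.14), Slc28a3 (4.41 against 4.08 to 4.1), Slc5a4a (4.63 against 4.03 to 4.11) and Slc5a8 (4.91 against 4.25 to 4.33). It was below them in Slc26a11 (5.67 against 6.3 to 6.36) and Slc40a1 (6.68 against 7.39 to 7.47). At the brightest probe set of Slc5a4a control 4 was at 7.8 against 6.39 to 6.54. The remaining case was control 2 at the brightest probe set of Slc9a3r1, at 8.74 against 8.45 to 8.5, where the Dicer1-deficient arrays reached 7.63.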

How the results depend on the processing

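The number of Slc genes past the threshold depended on how probe sets were combined and on control 4. Shares in brackets are those of all genes tested in the same way. By the brightest probe set it was 3 of 95 as reported (2.33%), 7 by the median of probe sets (3.51%), 11 by their mean (5.86%), 11 of the 69 members with a probe set above the median signal by the mean of those (7.66%), 8 with array weights (7.67%), 7 at a threshold of 0.10 (4.24%), 1 at 0.01 (0.737%), and 7 when any probe set of the gene passed. It ran from 1 (0.658% without the first Dicer1-deficient array) to 6 (5.18% without control 4) when arrays were left out one at a time. Of the 3 genes reported, 1 passed by the median of probe sets. By the mean of probe sets it was 11 of 95 as reported (5.86%), 7 of the 39 members with a mean above the median signal (9.72%), 7 by the median (3.51%), 25 with array weights (19.6%), 5 at 0.01 (1.87%), 3 by the brightest probe set (2.33%) and 7 when any probe set passed, and 6 to 22 on leaving out arrays. Without control 4 the 22 members stood beside 17% of all genes, and without the second Dicer1-deficient array the 6 stood beside 2.47%. The share of all genes with any probe set passing was not computed. Of the 11 genes reported by the mean, 5 passed by the median of probe sets. The share of all genes rose and fell with that of the members under array weights and the thresholds. The array weights gave control 4 a weight of 0.138 and 0.0926. The cause of these differences was not tested. A repeated quantile normalization, median centring, a variance trend and robust moderation kept both counts within 1.5 times. The sign turned for Slc28a3, from -0.27 at the brightest probe set to 0.75 by the median and 0.61 by the mean. It turned also for Slc6a4, from -0.04 to 0.38 by the mean, and from 0.38 by the mean to -0.0405 when only probe sets above the median signal were averaged. No other called value changed direction. No paired analysis was possible because the labels carry no replicate numbers that pair the arrays.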
